A study of Ambystoma mexicanum with 15 samples.

Results

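In injured axolotl spinal cord treated with ivermectin, 76 probe sets of 75 genes differed from uninjured cord, although injured cord sampled at the same 1 day without the drug read close to uninjured cord. They are 76 of the 20035 probe sets measured, and of the 10951 that carry a gene name. A probe set is a group of short probes on the array that together measure 1 transcript, and values are log2 expression, so a difference of 1 is a doubling of expression. The members were chosen from their values: the ivermectin mean differed from the uninjured mean by at least 0.3 without overlap between the 3 and 3 arrays, the 1 day mean differed from it by under 0.2, and the mean over all 15 arrays was above 5. Of the members, 57 were lower with ivermectin and 19 higher. The differences of ivermectin and of 1 day from uninjured cord therefore describe the choice and carry no test here.

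Ivermectin is an antiparasitic drug that opens glutamate-gated chloride channels of invertebrates, and in vertebrates it can act on glycine and GABA receptors and other ligand-gated channels. Chloride flow changes the membrane potential, which in neural tissue influences calcium entry and the transcription of early response genes. In the axolotl, a salamander, ependymoglial cells that line the central canal of the spinal cord divide and rebuild the cord after injury. Stress and early response genes of vertebrates are switched on and off within hours of an injury, and many encode transcription factors with short-lived transcripts.

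The ivermectin group (3 arrays) was injured white axolotls given the drug into the central canal by pressure injection just before a piece of cord was removed, with the injured region taken 1 day later. The uninjured group and the groups at 1, 3 and 7 days after injury had 3 arrays each, from cord of white axolotls whose labels name no drug. The protocol mentions water as a vehicle, but the labels do not state whether the 1 day animals were injected with it, so the drug and the injection cannot be told apart in the difference between ivermectin and 1 day. All animals were labelled 1 month old, those used in vivo were 2 to 3 cm long, and each array held RNA of 10 pooled animals, so the spread between arrays is that between pools.

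Array medians lay between 5.81 and 5.90 and lower quartiles between 4.21 and 4.28, and no group mean of a member lay below the lower quartile. Correlations between arrays of the same group were 0.9974 to 0.9987. Between ivermectin and uninjured arrays they were 0.9962 to 0.9968, and between ivermectin and 1 day arrays 0.9673 to 0.9684. Poly-A control RNA, which is added in the laboratory, read 7.39 to 7.48 in the ivermectin arrays and 8.04 to 8.13 in the 1 day arrays, against 7.50 to 7.56 in the uninjured arrays. It read 8.22 to 8.41 at 3 days and 7.81 to 8.09 at 7 days. Its part in the results below was not tested. The ependymoglial filament gene GFAP read 10.41 to 10.43 with ivermectin and 10.58 to 10.61 at 1 day, against 9.92 to 10.03 in uninjured cord. The filament gene VIM read 13.16 to 13.23 with ivermectin and 13.67 to 13.69 at 1 day, against 13.23 to 13.30 in uninjured cord. SLC1A3 of the same list read 7.71 to 7.85 with ivermectin and 8.08 to 8.25 at 1 day, against 7.28 to 7.34 uninjured. MSI1 read 7.92 to 8.11 with ivermectin and 7.68 to 7.81 at 1 day, against 7.56 to 7.84 uninjured. SOX9, FABP7, FOXJ1 and PAX6 overlapped between ivermectin and uninjured cord. The myelin gene MBP read 11.09 to 11.13 with ivermectin and 11.76 to 11.82 at 1 day, against 11.10 to 11.15 in uninjured cord, whereas CNP of the same list read 6.39 to 6.62 and 5.39 to 5.66, against 6.30 to 6.69. In whole tissue, fewer cells of a type and less RNA per cell cannot be told apart.

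Among the 10951 named probe sets, 1.57% were at least 0.3 higher with ivermectin than in uninjured cord without overlap, and 2.67% were at least 0.3 lower. Of the 7301 with a mean above 5, 413 passed this step, 267 lower and 146 higher. The 1 day bound kept 76 of the 413, or 18.4%. Of all 7301, 63.5% differed from uninjured cord by 0.2 or more at 1 day and so lay outside this bound. Of the 337 that the bound left out, 218 lay on the opposite side of uninjured cord at 1 day and 119 on the same side. The matching shares of sides over the 7301 were not counted. The opposite pattern was mostly that of genes lower with ivermectin, of which 149 were higher at 1 day without the drug and 61 lower. Without the third uninjured array the rule gave 34 higher members in place of 19, with 17 of the 19 kept.

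**Figure D1:**
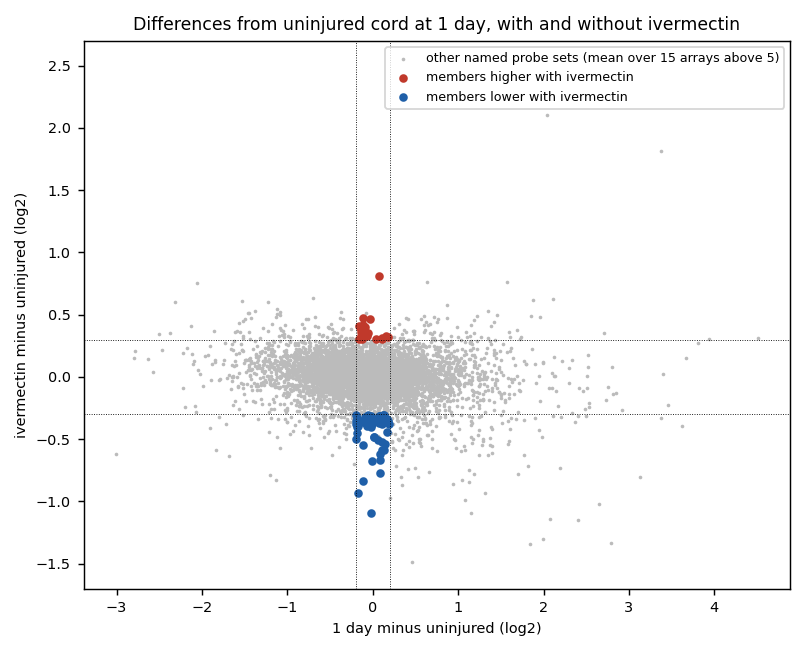
Each point is a named probe set with a mean above 5, placed by its 1 day minus uninjured difference (horizontal, log2) and its ivermectin minus uninjured difference (vertical, log2). Dotted lines mark 0.2 and 0.3 in size. The 57 members lower with ivermectin (blue) reach -1.10 and the 19 higher (red) reach 0.81, all within 0.2 of uninjured cord at 1 day.

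Most members lay near the threshold. The median difference was -0.36 among the 57 lower members and 0.35 among the 19 higher ones, and 13 of the lower and 1 of the higher members reached 0.5 in size. Over the 76 members, the median SD between arrays of a group was 0.0659 with ivermectin and 0.0691 at 1 day, against 0.0819 in uninjured cord. The rule required no overlap between ivermectin and uninjured arrays, which favours a small spread in these groups. These SDs are therefore no measure of the spread over all probe sets. The members just inside the size threshold were CDH2, SERPINB1 and ANKRD2 (0.303 each) and DNASE2B (-0.303), IGFALS (-0.304) and KREMEN1 (-0.305). Just outside it lay CARM1 (0.299), MKNK1 (0.295) and DCP1B (0.289), and ELK3 (-0.300), DGAT2 (-0.297) and EFEMP1 (-0.297). At the 1 day bound, RBMS2 (-0.199), KREMEN1 (-0.195) and ID2 (-0.195) were just inside. PLEK2 (0.2), MYLIP (-0.204) and HIF3A (-0.215) were just outside, and PLEK2 read -0.976 with ivermectin, further from uninjured cord than 75 of the 76 members.

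The 1 day arrays overlapped the uninjured arrays in 39 of the 57 lower members and 12 of the 19 higher members. In the remaining members these arrays did not overlap, but with so few arrays per group this alone does not show a difference. The ivermectin arrays did not overlap the 1 day arrays in 51 of the 57 lower members and 17 of the 19 higher members. The rule set how far ivermectin and 1 day lay from uninjured cord, so these overlap counts partly follow from the choice of members. The matching shares over all probe sets were not counted, so the counts are a description. The ivermectin minus 1 day difference ran between -1.08 and -0.11 among the lower members and between 0.14 and 0.74 among the higher ones.

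The largest role group was that of transcription and chromatin regulators, with 19 genes, of which 15 were lower with ivermectin and 4 higher. These role groups were made after the values were seen. The member furthest from uninjured cord was NUPR1 (probe set axo13165-r_at), a small chromatin protein induced by cellular stress. It read 9.16, 9.21 and 9.25 in the ivermectin arrays and 10.33, 10.27 and 10.25 in the 1 day arrays, against 10.27, 10.31 and 10.32 in the uninjured arrays. The ivermectin mean was 2.14-fold lower than the uninjured mean (log2 difference -1.10), whereas the 1 day difference was -0.02. TGIF1 (axo02052-f_at), a homeodomain repressor that restrains TGF-beta signalling, read 6.09, 6.42 and 6.2 in the ivermectin arrays and 7.12, 7.17 and 7.00 in the 1 day arrays, against 6.93, 6.92 and 7.17 in the uninjured arrays. All 3 ivermectin arrays read 6.42 or less, below every array of the other 2 groups. The interferon-response factor IRF1 (axo07978-r_at) read 9.74, 9.79 and 9.77 with ivermectin and 10.41, 10.42 and 10.46 at 1 day without it, against 10.42, 10.39 and 10.51 in uninjured cord, a log2 difference of -0.67 with the drug.

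SALL4 (axo17557-f_at), a zinc finger factor of pluripotent cells, read 8.61, 8.55 and 8.41 in the ivermectin arrays and 9.19, 9.21 and 9.30 in the 1 day arrays, against 9.03, 9.09 and 9.30 in the uninjured arrays. BCL9L (axo02731-f_at), a coactivator of beta-catenin, read 6.10, 6.0 and 5.85 with ivermectin and 6.72, 6.64 and 6.65 at 1 day without it, against 6.32, 6.69 and 6.57 in uninjured cord. In both genes the ivermectin arrays lay below all 1 day and uninjured arrays. NFIL3 (axo11025-f_at), a leucine zipper repressor, read 9.55, 9.56 and 9.53 in the ivermectin arrays and 10.16, 10.17 and 10.23 in the 1 day arrays, against 10.07, 10.06 and 10.09 in the uninjured arrays, with an SD of at most 0.0356 in these groups. ID2 (axo20613-f_at), which blocks basic helix-loop-helix factors, read 8.64 to 8.80 with ivermectin and 9.0 to 9.12 at 1 day, against 9.16 to 9.33 uninjured. FOXO1 (axo07820-f_at), the forkhead factor that insulin signalling keeps out of the nucleus, read 6.69 to 6.92 with ivermectin and 7.39 to 7.45 at 1 day, against 7.11 to 7.37 uninjured.

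JUN (axo08015-f_at), a subunit of the early response factor AP-1, read 6.96, 7.06 and 7.14 in the ivermectin arrays and 7.37, 7.35 and 7.24 in the 1 day arrays, against 7.34, 7.50 and 7.40 in the uninjured arrays. Its ivermectin arrays lay below the other 2 groups, with a log2 difference of -0.36 from uninjured cord. The remaining lower members with these roles were the coactivator CITED2 (-0.45), the myeloid factor SPI1 (-0.41), the ubiquitin ligase and nuclear receptor coregulator RNF14 (-0.36), ZNF518B (-0.37), the small Maf protein MAFK (-0.35) and CSRNP1 (-0.31). The 4 higher ones were ACTR6, a subunit of a histone exchange complex (0.42), the zinc finger factor IKZF5 (0.36), the Mediator subunit MED10 (0.33) and the general transcription factor subunit GTF2A2 (0.32). ACTR6 (axo18442-f_at) read 8.07, 7.91 and 8.02 with ivermectin and 7.43, 7.48 and 7.48 at 1 day without it, against 7.64, 7.52 and 7.58 in uninjured cord. IKZF5 (axo18414-f_at) read 6.0 to 6.33 with ivermectin and 5.59 to 5.78 at 1 day, against 5.68 to 5.89 uninjured, and MED10 (axo19838-r_at) read 8.03 to 8.11 with ivermectin and 7.53 to 7.69 at 1 day, against 7.66 to 7.89 uninjured. In all 3 the ivermectin arrays were above every 1 day and uninjured array.

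Signalling adaptors and growth control genes made up 9 members, and all 9 were lower with ivermectin. SPSB4 (axo00433-f_at), which presents substrates to a ubiquitin ligase, read 5.22, 4.93 and 5.22 in the ivermectin arrays and 5.58, 6.15 and 5.83 in the 1 day arrays, against 5.88, 5.93 and 6.08 in the uninjured arrays. Its 1 day arrays spread widely (SD 0.285) and covered the range of the uninjured arrays. CCNG2 (axo09986-f_at), a cyclin associated with cell cycle arrest, read 7.35, 7.23 and 7.17 with ivermectin and 7.88, 8.08 and 8.03 at 1 day without it, against 7.85, 7.94 and 7.95 in uninjured cord. Another CCNG2 probe set, axo09985-f_at, was -0.22 from uninjured cord with ivermectin and -0.36 at 1 day, so the CCNG2 pattern held for the member probe set only. ARRDC3 (axo17755-f_at), an arrestin-like protein that promotes receptor degradation, read 6.23, 6.08 and 6.19 in the ivermectin arrays and 6.94, 6.85 and 6.78 in the 1 day arrays, against 6.64, 6.88 and 6.73 in the uninjured arrays. TXNIP, another arrestin-like protein, which limits glucose uptake and binds thioredoxin, differed by -0.49, with 11.90 to 11.99 against 12.42 to 12.46. The member probe sets of CCNG2, ARRDC3 and TXNIP each lay between 0.49 and 0.67 below uninjured cord with ivermectin. The others were the ubiquitin ligase PELI1 (-0.35), the phosphatase inhibitor PPP1R14B (-0.35), the adaptor BCAR3 (-0.34), the antiproliferative protein TOB2 (-0.31) and the phosphodiesterase PDE7B (-0.38).

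Of 13 receptors, receptor regulators and surface proteins, 10 were lower with ivermectin and 3 higher. ANTXR2 (axo00296-f_at), a surface receptor that binds matrix proteins, read 5.99, 5.89 and 5.86 in the ivermectin arrays and 6.58, 6.75 and 6.72 in the 1 day arrays, against 6.86, 6.95 and 6.74 in the uninjured arrays. Its ivermectin mean was 1.91-fold lower than the uninjured mean. PMEPA1, a membrane protein that dampens TGF-beta signalling, differed by -0.50, and the receptor TGFBR2 by -0.32. Another TGFBR2 probe set, axo20196-r_at, was -0.04 from uninjured cord with ivermectin, with overlap, and 0.31 at 1 day. EGFR, the receptor of epidermal growth factor, read 7.54 to 7.77 with ivermectin and 7.76 to 7.90 at 1 day, against 7.96 to 8.07 uninjured, so its 1 day arrays lay below the uninjured arrays and touched the range of the ivermectin arrays. The remaining lower ones were the lipoprotein receptor VLDLR (-0.38), the adhesion protein FLRT2 (-0.33), MXRA8 (-0.35), the death receptor TNFRSF21 (-0.32), the Wnt coreceptor regulator KREMEN1 (-0.30) and IGFALS, which carries insulin-like growth factors in blood (-0.30).

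IGF1R (axo09398-f_at), the receptor of insulin-like growth factor 1, had the largest positive difference of all members. It read 6.31, 6.18 and 6.35 in the ivermectin arrays and 5.33, 5.65 and 5.65 in the 1 day arrays, against 5.44, 5.38 and 5.59 in the uninjured arrays. The ivermectin mean was 1.75-fold higher than the uninjured mean (log2 difference 0.81), and no ivermectin array overlapped the other 2 groups. The neural cadherin CDH2 (0.30) and the junction protein VEZT (0.32) were the other 2 higher surface proteins, both near the threshold.

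Metabolic enzymes and transporters gave 9 probe sets of 8 genes, with 8 probe sets lower and 1 higher. MTHFD2 (axo12280-f_at), a mitochondrial enzyme of folate metabolism, read 11.05, 11.12 and 11.12 in the ivermectin arrays and 11.81, 11.82 and 11.81 in the 1 day arrays, against 11.68, 11.68 and 11.69 in the uninjured arrays. Its uninjured arrays agreed within an SD of 0.00584, and the ivermectin mean was 1.5-fold lower. SLC16A6, of the monocarboxylate transporter family, was the gene with more than 1 member probe set. Probe set axo10356-f_at read 9.37 to 9.49 with ivermectin and 9.66 to 9.79 at 1 day, against 9.70 to 9.85 uninjured. Probe set axo10354-f_at read 9.84 to 9.93 with ivermectin and 10.23 to 10.26 at 1 day, against 10.13 to 10.35 uninjured. The 2 gave almost the same difference, -0.36 and -0.35, but both had to pass the same rule. SLC16A6 probe sets axo10352-f_at and axo10353-f_at, which were not members, were -0.25 and -0.26 with ivermectin. At 1 day they were -0.19 and 0.62 from uninjured cord. The other lower genes were PDK2, which inhibits pyruvate dehydrogenase (-0.40), the uridine-cytidine kinase UCK2 (-0.34), the mitochondrial carrier SLC25A21 (-0.33), SERAC1 (-0.33) and the magnesium transporter NIPA1 (-0.31). The steroid dehydrogenase HSD17B2 was higher and read 10.54 to 10.63 with ivermectin and 10.14 to 10.26 at 1 day, against 10.21 to 10.30 uninjured. Another HSD17B2 probe set, axo07943-f_at, was 0.38 from uninjured cord with ivermectin and -0.36 at 1 day.

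Of 10 genes of the cytoskeleton and membrane traffic, 9 were lower and 1 was higher. TIAM2 (axo16681-r_at), an activator of the GTPase Rac, read 6.08, 5.82 and 5.98 in the ivermectin arrays and 6.34, 6.39 and 6.46 in the 1 day arrays, against 6.39, 6.65 and 6.48 in the uninjured arrays. The GTPase-activating proteins ARHGAP23 (-0.48) and ARHGAP29 (-0.37), the actin crosslinker filamin A, FLNA (-0.31), and its partner FBLIM1 (-0.37) were lower by smaller amounts. Other FLNA probe sets with a mean above 5 (axo05294-f_at, axo05295-f_at and axo05298-f_at) were lower at 1 day, by -1.01, -0.81 and -0.39. With ivermectin they were -0.28, -0.15 and -0.02 from uninjured cord and overlapped it, so the FLNA pattern held for the member probe set only. SNX18 (-0.39) and RAB31 (-0.32), both of membrane traffic, the kinesin KIF21A (-0.36) and the postsynaptic scaffold protein DLGAP4 (-0.35) completed the lower ones. Another SNX18 probe set, axo21362-f_at, was -0.31 from uninjured cord with ivermectin and -0.24 at 1 day. FSCN2 (axo13195-r_at), an actin bundling protein known from the retina, was the higher one. It read 5.39, 5.69 and 5.64 with ivermectin and 5.06, 4.94 and 4.95 at 1 day without it, against 5.07, 5.18 and 5.06 in uninjured cord.

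RNA modification, RNA binding and nuclear transport was the role group with most members on the higher side, 6 of 7. TRUB2 (axo15221-f_at), a pseudouridine synthase of mitochondria, read 6.44, 6.59 and 6.51 in the ivermectin arrays and 6.15, 5.92 and 5.96 in the 1 day arrays, against 6.14, 6.03 and 5.98 in the uninjured arrays. NSUN4 (axo03217-f_at), a methyltransferase of mitochondrial ribosomal RNA, read 7.25, 7.35 and 7.37 with ivermectin and 6.77, 6.75 and 6.78 at 1 day without it, against 6.86, 6.96 and 6.94 in uninjured cord. IPO11 (axo06036-f_at), a nuclear import receptor, read 7.60, 7.43 and 7.48 in the ivermectin arrays and 6.95, 7.01 and 7.09 in the 1 day arrays, against 7.08, 7.13 and 7.11 in the uninjured arrays. In these 3 genes every ivermectin array was above every 1 day and uninjured array. LSM1 (axo13784-f_at), which takes part in mRNA decay, read 8.84 to 8.92 with ivermectin and 8.34 to 8.39 at 1 day, against 8.42 to 8.62 uninjured. The tRNA-modifying enzyme TYW3 (0.31) and the ribosome biogenesis factor UTP6 (0.31) were also higher, and the RNA-binding protein RBMS2 was lower (-0.37). UTP6 was among the most variable, with an SD of 0.363 at 1 day.

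Of the 9 members with other roles, 5 were lower and 4 higher. FAM53A (axo17955-f_at) read 9.38 to 9.46 with ivermectin and 8.80 to 8.90 at 1 day, against 8.93 to 9.07 uninjured, and RSBN1L (axo03058-f_at) read 7.79 to 8.0 with ivermectin and 7.35 to 7.53 at 1 day, against 7.46 to 7.58 uninjured. Both sets of ivermectin arrays were above the other 2 groups. The protease inhibitor SERPINB1 and the muscle stress protein ANKRD2 differed by 0.30 each. The lower ones were the protease ASTL (-0.36), the nucleases EEPD1 (-0.35) and DNASE2B (-0.30), the ubiquitin ligase subunit FBXL2 (-0.34) and MMD (-0.32).

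**Figure D2:**
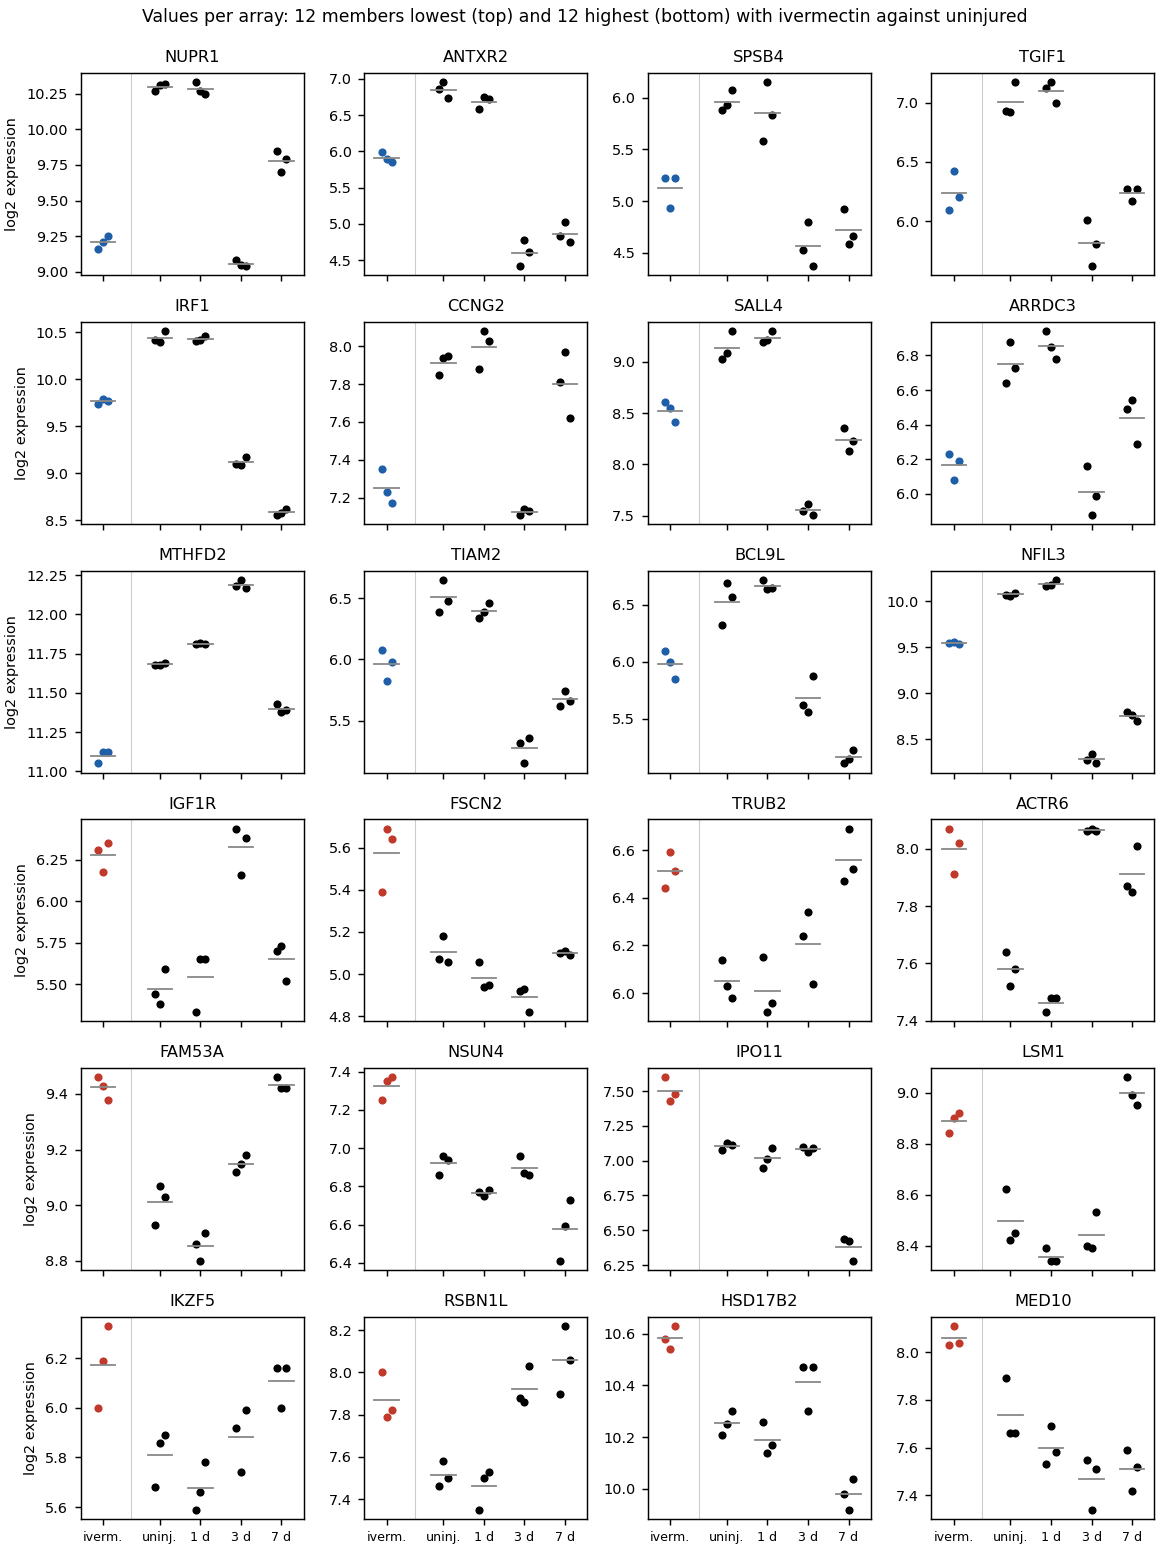
Log2 expression of each array (points) and group means (bars) for the 12 members with the most negative (top 3 rows, blue) and the 12 with the most positive ivermectin minus uninjured difference (bottom 3 rows, red). Groups run from ivermectin through uninjured, 1, 3 and 7 days, and each panel has its own vertical scale. Ivermectin and uninjured arrays do not overlap in any panel, since the members were chosen so.

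The comparisons of 3 and 7 days with uninjured cord show where the members stood later in untreated injury. They share the uninjured arrays with the choice of members, so the counts are not independent of it. At 3 days, 42 of the 57 members lower with ivermectin were lower than uninjured cord and 6 were higher (limma, adjusted p under 0.05), with a median difference of -0.74. Over all probe sets 30.2% were lower and 29.8% higher at 3 days, with a median of 0.02. Among the 7301 named probe sets with a mean above 5, 42.9% were lower and 30.8% higher. At 7 days 40 of the 57 were lower and 7 higher, with a median of -0.59. Over all probe sets 28.9% were lower and 28.8% higher at 7 days, and over the 7301 the shares were 37.0% and 36.1%.

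In 38 of the 57 members lower with ivermectin, both later times were called lower than uninjured cord (limma, adjusted p under 0.05). The share of all probe sets called lower at both times was not counted. Values after ± are the SE of the difference. ANTXR2 was -2.24 ± 0.09 (adjusted p = 1.68e-11) from uninjured cord at 3 days and -1.98 ± 0.09 (adjusted p = 7.22e-11) at 7 days. NUPR1 was -1.24 ± 0.05 (adjusted p = 9.12e-12) at 3 days, close to its ivermectin difference of -1.10, and -0.52 ± 0.05 (adjusted p = 2.05e-07) at 7 days. IRF1 fell further with time, with -1.32 ± 0.05 (adjusted p = 2.28e-12) at 3 days and -1.85 ± 0.05 (adjusted p = 7.29e-14) at 7 days. The regulators NFIL3 (-1.78 and -1.32 at 3 and 7 days), FOXO1 (-1.94 and -1.72) and SALL4 (-1.59 and -0.90) also fell at both times. PPP1R14B (-2.01 and -1.75), MMD (-1.31 and -2.03) and both SLC16A6 probe sets (-1.56 and -1.67, -1.62 and -1.63) fell by over 1 at both times. Apart from these calls, the 3 day mean was below the ivermectin mean in 38 of the 57, and the 7 day mean in 33. The matching shares over all probe sets were not counted, so these counts are a description.

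Of the 15 transcription and chromatin regulators lower with ivermectin, 14 fell at 3 days and 13 at 7 days, with none higher at either time by limma at this threshold. MAFK was the one not past the threshold at 3 days, with -0.06 ± 0.12 (adjusted p = 0.676), and at 7 days MAFK was at -0.27 ± 0.12 (adjusted p = 0.0673) and ZNF518B at -0.14 ± 0.11 (adjusted p = 0.313). Of the 9 signalling and growth control members, 7 fell and 1 rose at 3 days, and 6 fell at 7 days. Among all 57 lower members 73.7% fell at 3 days and 70.2% at 7 days, against 42.9% and 37.0% of the 7301. The role groups were made after the values were seen, so their counts are a description. CCNG2 fell at 3 days, with -0.79 ± 0.08 (adjusted p = 5.23e-07), but at 7 days its difference was -0.12 ± 0.08 (adjusted p = 0.228).

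A smaller number of lower members went the other way in untreated injury. PDK2, lower with ivermectin, rose by 0.89 ± 0.07 (adjusted p = 1.67e-08) at 3 days and by 1.29 ± 0.07 (adjusted p = 2.35e-10) at 7 days. DNASE2B (0.18 and 0.80), ARHGAP29 (0.20 and 0.33) and NIPA1 (0.29 and 0.24) rose at both times. MTHFD2 rose by 0.51 ± 0.04 (adjusted p = 3.60e-08) at 3 days and fell at 7 days, with -0.28 ± 0.04 (adjusted p = 2.43e-05). TXNIP rose at 3 days, with 0.19 ± 0.04 (adjusted p = 0.0018), and at 7 days read within 0.01 of uninjured cord. FBXL2, RAB31 and SERAC1 rose at 7 days only by this threshold (0.74, 0.41 and 0.73), with 3 day differences of 0.04, -0.09 and 0.16. The member probe sets of TGFBR2, VLDLR, KIF21A, MAFK and IGFALS did not pass the threshold at either time. For TGFBR2 this did not hold across probe sets, since axo20196-r_at was 0.38 above uninjured cord at 3 days and 1.17 above it at 7 days.

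The 19 members higher with ivermectin were more mixed. At 3 days 8 were higher than uninjured cord and 4 lower, with a median of 0.07, and at 7 days 10 were higher and 6 lower, with a median of 0.30. The shares at 3 days were 42.1% higher and 21.1% lower, against 30.8% and 42.9% of the 7301. At 7 days they were 52.6% and 31.6%, against 36.1% and 37.0%. IGF1R was 0.86 ± 0.10 (adjusted p = 1.88e-06) from uninjured cord at 3 days, about as far as with ivermectin, and 0.18 ± 0.10 (adjusted p = 0.128) at 7 days. CDH2 rose by 1.19 ± 0.06 (adjusted p = 1.58e-10) at 3 days and 1.55 ± 0.06 (adjusted p = 7.91e-12) at 7 days. ACTR6, FAM53A, RSBN1L, TYW3 and VEZT also rose at both times, by between 0.14 and 0.66. In the fit of the 3 day and uninjured arrays alone, FAM53A did not pass the threshold at 3 days. The muscle protein ANKRD2 was far below uninjured cord at 3 days, with -2.84 ± 0.06 (adjusted p = 1.49e-14), and at 7 days, with -1.77 ± 0.06 (adjusted p = 2.91e-12). SERPINB1 fell at both times too, with -1.56 and -0.51. IPO11 fell at 7 days, with -0.73 ± 0.06 (adjusted p = 2.94e-08), and so did NSUN4, with -0.34 ± 0.07 (adjusted p = 5.84e-04), whereas both member probe sets read -0.02 at 3 days. NSUN4 probe set axo03219-f_at was already -0.52 at 3 days and -0.58 at 7 days, and axo03218-f_at was 0.03 and -0.16.

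**Figure D3:**
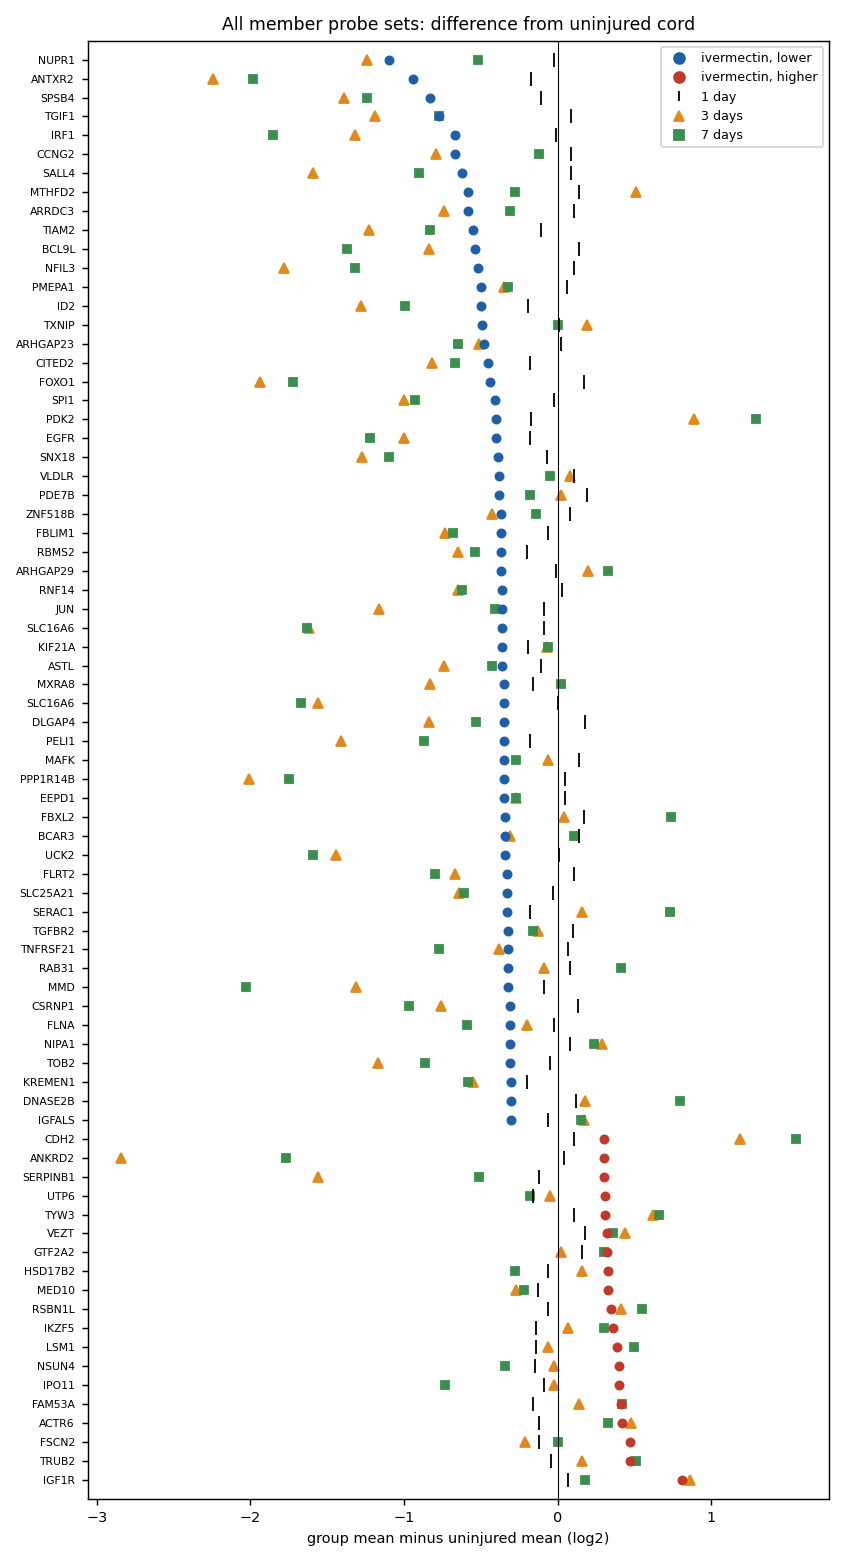
Each row is a member probe set, and symbols give the group mean minus the uninjured mean on the log2 scale for ivermectin (circles), 1 day (ticks), 3 days (triangles) and 7 days (squares). Rows run from the most negative ivermectin difference (-1.10, NUPR1) at the top to the most positive (0.81, IGF1R) at the bottom. Triangles and squares lie left of 0 for most of the 57 lower members, with PDK2 and DNASE2B among the exceptions.

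The comparison of 3 days with 1 day uses the 1 day arrays, which entered the choice through the bound of 0.2. Of the 57 lower members 44 fell from the level at 1 day and 7 rose, with a median 3 days minus 1 day difference of -0.67. Over all probe sets 18.7% fell and 21.9% rose, with a median of 0.03, and among the 7301 the shares were 26.0% and 26.5%. Of the 19 higher members 8 rose and 2 fell, ANKRD2 (-2.89) and SERPINB1 (-1.44). The largest falls among the lower members were those of FOXO1 (-2.11), ANTXR2 (-2.08), PPP1R14B (-2.06) and NFIL3 (-1.90).

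The comparison of 7 with 3 days uses none of the groups that set the differences in the rule, and asks how the members moved between the later times sampled. Of the 76 members 31 were higher at 7 days than at 3 days and 14 lower (limma, adjusted p under 0.05), with a median of 0.12. Over all probe sets 22.2% were higher and 18.6% lower, with a median of -0.01. Among the 7301 named probe sets with a mean above 5, 35.4% were higher and 18.7% lower, with a median of 0.07. The members' shares were 40.8% and 18.4%, near those of the 7301. The 57 lower members gave 23 higher and 9 lower, and the 19 higher members 8 and 5.

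ANKRD2 and SERPINB1 showed the largest changes. ANKRD2 read 6.41, 6.45 and 6.24 in the 7 day arrays, against 5.18, 5.34 and 5.36 in the 3 day arrays. SERPINB1 read 7.54, 7.31 and 7.48 in the 7 day arrays, against 6.44, 6.48 and 6.23 in the 3 day arrays. The differences were 1.07 ± 0.06 (adjusted p = 5.00e-09) and 1.06 ± 0.07 (adjusted p = 3.10e-08), and in both genes the 7 day arrays remained below the uninjured arrays. MXRA8, a surface protein found with matrix, read 6.25, 6.16 and 6.30 in the 7 day arrays, against 5.33, 5.31 and 5.51 in the 3 day arrays, a rise of 0.85 ± 0.06 (adjusted p = 4.19e-08). Its 7 day arrays covered the uninjured range of 6.2 to 6.25. JUN read 7.12, 7.01 and 6.89 in the 7 day arrays, against 6.2, 6.26 and 6.31 in the 3 day arrays, and its rise was 0.75 ± 0.07 (adjusted p = 5.10e-07). NUPR1 (0.72), SALL4 (0.68) and CCNG2 (0.67) rose between 3 and 7 days as well. MTHFD2 read 11.43, 11.38 and 11.39 in the 7 day arrays, against 12.18, 12.22 and 12.17 in the 3 day arrays, a fall with a log2 difference of -0.79 ± 0.04 (adjusted p = 1.60e-09). MMD read 7.57, 7.66 and 7.45 in the 7 day arrays, against 8.37, 8.28 and 8.20 in the 3 day arrays, with a difference of -0.72 ± 0.06 (adjusted p = 1.45e-07). IPO11 (-0.71), IGF1R (-0.68), IRF1 (-0.53) and BCL9L (-0.53) also fell.

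**Figure D4:**
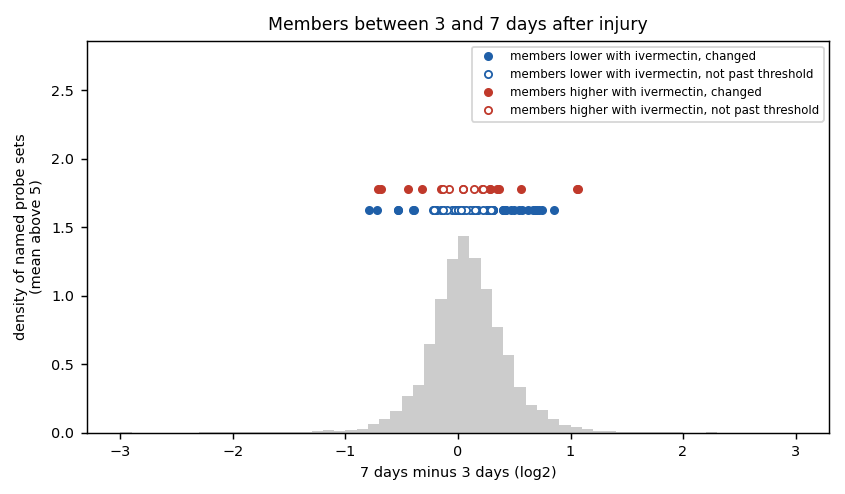
Grey bars give the density of the 7 days minus 3 days difference (log2) over the 7301 named probe sets with a mean above 5. Points above them are the members lower (blue) and higher (red) with ivermectin, filled where limma's adjusted p was under 0.05. The members lie between -0.79 (MTHFD2) and 1.07 (ANKRD2), across the body of the grey distribution.

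Some member genes had further probe sets that the rule did not take, which show whether the pattern holds for the gene. There were 30 such probe sets of 22 genes. Of these, 26 lay on the same side of uninjured cord with ivermectin as the member, 16 of them without overlap, and the 4 on the other side all overlapped. Of the 17 with a mean above 5, all 17 lay on the same side, 13 of them without overlap. Some of the 17 lay close to uninjured cord, such as FLNA axo05298-f_at (-0.02) and TGFBR2 axo20196-r_at (-0.04). The matching shares over all probe sets were not counted. The further probe sets read the same contrast in the same arrays, so these counts are a description.

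At 1 day the further probe sets gave another picture. Of the 17 with a mean above 5, 14 differed from uninjured cord by 0.2 or more at 1 day, in 12 of 13 genes, 7 in the direction of the ivermectin difference and 7 against it. Among all 7301 named probe sets with a mean above 5, 63.5% differed by 0.2 or more. TGIF1 probe set axo01935-f_at was -0.87 from uninjured cord with ivermectin and 0.34 at 1 day. PMEPA1 probe set axo03238-f_at was -0.80 with ivermectin and 0.33 at 1 day, and FBLIM1 probe set axo19900-f_at -0.53 and 0.48. For these genes the further probe set was lower with the drug and higher without it. MMD probe set axo13134-r_at was -0.31 with ivermectin and -0.78 at 1 day, and CITED2 probe set axo11684-r_at -0.34 and -0.63. NSUN4 had 2 further probe sets, at 0.26 and 0.48 with ivermectin and -0.01 and -0.38 at 1 day. In 12 of these 13 genes, therefore, the 1 day difference under 0.2 held for the member probe set and not for a further one.

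**Figure D5:**
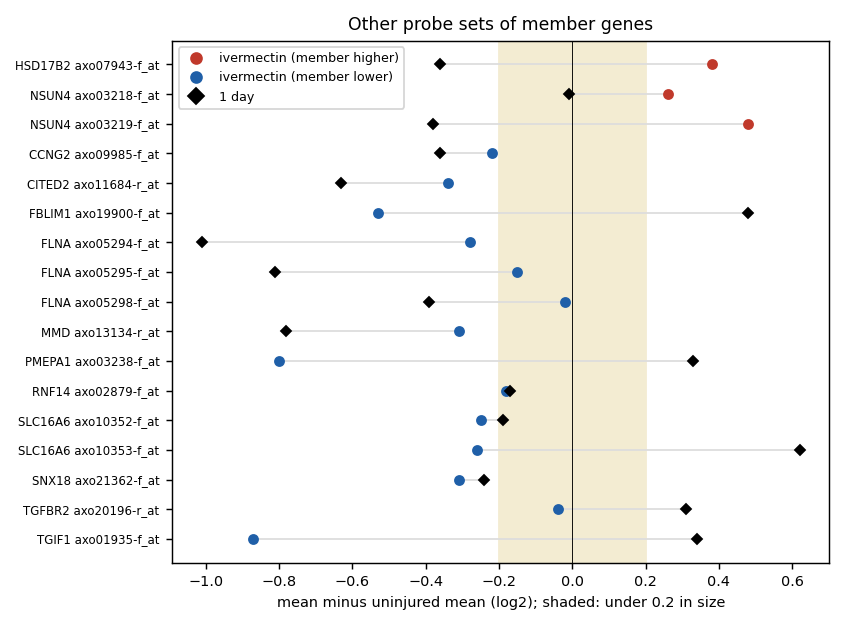
The 17 further probe sets of member genes with a mean above 5, with the difference from uninjured cord (log2) with ivermectin (circles, red or blue as the member is higher or lower) and at 1 day (black diamonds). The shaded band marks differences under 0.2 in size. All circles lie on the side of their member, and 14 of the 17 diamonds lie outside the band.

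Lists of genes around the drug and the members' roles put the members among related genes. The 15 lists, 1 probe set per gene, held 418 measured genes that were not members, of which 28 were higher and 27 lower with ivermectin than in uninjured cord by limma. Counting also the 4 members in the lists, which were chosen on this contrast, 29 were higher and 30 lower. Of that total, 18 were lower without the second uninjured array, and 16 in the fit of the 2 groups alone. Over all 20035 probe sets 3.02% were higher and 3.93% lower, with a median of 0.01. Over the 8639 genes taken with 1 probe set each, 3.06% were higher and 4.33% lower. The list genes, members counted, gave 6.87% and 7.11%, and the lists were chosen with earlier results of these data known. Of the 17 measured ligand-gated chloride channels and other ivermectin-sensitive receptors 0 changed at an adjusted p under 0.05 by limma, and of 21 chloride channels and cotransporters 0 did. At an unadjusted p under 0.05, 1 gene was lower in each of these 2 lists. Of 32 lysosome and autophagy genes 0 changed by limma (2 higher and 2 lower at an unadjusted p under 0.05), and of 24 genes of xenobiotic metabolism 1 rose, the retinoic acid hydroxylase CYP26A1 (0.60 ± 0.10, adjusted p = 0.00183, with -1.22 at 1 day). Of the chloride channels and cotransporters 1 was lower under median centring, cyclic loess, an intensity trend in the prior variance and with dim probe sets left out. The intensity trend also called 1 ivermectin-sensitive receptor lower and 3 genes of xenobiotic metabolism higher, and 2 genes of xenobiotic metabolism were higher with dim probe sets left out.

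JUN was the member among 14 measured immediate early genes. Of the other 13, 5 fell and 0 rose by limma (5 and 0 at an unadjusted p under 0.05), with a median of -0.18. FOS read 6.38, 6.46 and 6.31 with ivermectin and 10.06, 10.09 and 10.03 at 1 day, against 7.35, 7.38 and 7.48 in uninjured cord, a difference of -1.02 ± 0.07 with the drug (adjusted p = 4.88e-07). DUSP1, a phosphatase that ends MAP kinase signalling, differed by -0.78 ± 0.08 with ivermectin and by 1.70 at 1 day. JUNB differed by -0.52 ± 0.09 with ivermectin and by 0.54 at 1 day. These 3 genes were thus below uninjured cord with the drug and above it without. JUN was below it with the drug and within 0.2 of it without, as the rule required of every member, so its contrast with the 3 follows from the choice.

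IRF1 was the member among 23 measured genes of innate immunity, and of the other 22, 4 fell and 1 rose (median -0.06). With IRF1 counted, 5 fell and 1 rose, and in the fit of the 2 groups alone 3 and 0. The inhibitor of NF-kB, NFKBIA, differed by -0.71 ± 0.06 with ivermectin and 1.82 at 1 day, and SOCS1 by -0.37 ± 0.05 and 0.93. ID2 was the member among 42 measured genes of Wnt, BMP and FGF signalling, and of the other 41, 4 were lower and 0 higher by limma (8 and 3 at an unadjusted p under 0.05, median -0.01). With ID2 counted, 5 were lower, and in the fit of the 2 groups alone 2. LEF1, a transcription factor of Wnt signalling, read 4.77, 4.56 and 4.73 with ivermectin and 5.38, 5.04 and 5.34 at 1 day, against 5.30, 5.62 and 5.39 in uninjured cord. Its pattern was that of the lower members (-0.75 ± 0.14, adjusted p = 0.00293, and -0.18 at 1 day), and its mean over the 15 arrays was below the bound of 5. IPO11 was the member among 19 nuclear import receptors, and of the other 18, 1 rose, KPNA1 (0.35 ± 0.10, adjusted p = 0.0471), and 0 fell by limma (4 and 1 at an unadjusted p under 0.05, median 0.04). With IPO11 counted, 2 of the 19 rose, and 1 under median centring, in the fit of the 2 groups alone and with the replicate block.

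In the lists without a member, 16 of 45 measured genes of S, G2 and M phase rose with ivermectin and 0 fell by limma (22 and 2 at an unadjusted p under 0.05, median 0.16), among them the cyclin CCNE2 (0.53 ± 0.09) and the replication helicase subunit MCM3 (0.50 ± 0.06). Their 1 day differences were -1.38 and -1.09. With median centring, cyclic loess, an intensity trend or dim probe sets left out, 1 gene of this list fell. Of 21 genes of cholesterol and fatty acid synthesis 3 rose, HMGCS1, INSIG1 and CYP51A1, which were all below uninjured cord at 1 day. The extracellular matrix list had 38 measured genes, 9 lower and 0 higher by limma (13 and 1 at an unadjusted p under 0.05, median -0.09), led by THBS1 (-0.50 ± 0.06), and in the fit of the 2 groups alone 3 fell. Of 23 oxidative stress genes 3 fell, with the heme oxygenase HMOX1 at -0.55 ± 0.04, and of 25 chaperone genes 3 rose and 2 fell, with 0 falling in the fit of the 2 groups alone by limma. Of 45 ubiquitin and SUMO pathway genes 2 rose, and of 33 genes of mRNA decay and processing 1 rose, EXOSC2 (0.23 ± 0.06). The call of EXOSC2 was lost in the fit of the 2 groups alone and with the replicate block, and 1 of the ubiquitin and SUMO genes rose with the replicate block, median centring or cyclic loess.

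Markers of cell types were set beside the members by their mean log2 level per array. Of 10 macrophage and granulocyte markers besides the member SPI1, 1 was higher with ivermectin and 0 lower by limma (3 and 2 at an unadjusted p under 0.05). With SPI1 their mean level was 7.35 to 7.36 with ivermectin and 7.27 to 7.29 at 1 day, against 7.35 to 7.41 in uninjured cord. Of 14 skeletal muscle markers 1 was higher and 4 were lower, with a mean level of 10.35 to 10.36 with ivermectin and up to 12.02 at 1 day, against 10.38 to 10.46 in uninjured cord. At 3 days, where the muscle protein ANKRD2 was lowest, the muscle markers averaged 12.09 to 12.12. Of 12 epidermal markers 3 were lower with ivermectin, with a mean of 9.79 to 9.80 with ivermectin and 9.47 to 9.51 at 1 day, against 9.89 to 9.93 in uninjured cord. Of 10 markers of motile cilia 4 were higher, with 5.45 to 5.48 with ivermectin and 6.31 to 6.32 at 1 day, against 5.12 to 5.23 in uninjured cord, and of 15 neuronal markers 4 were higher, with 6.23 to 6.31 with ivermectin and 6.70 to 6.73 at 1 day, against 6.12 to 6.16 in uninjured cord. Of 4 red cell markers 2 were lower, with 5.79 to 5.89 with ivermectin and 7.08 to 7.14 at 1 day, against 5.97 to 6.0 in uninjured cord. Of 8 ependymoglial markers 2 were higher, of 15 cartilage and fibroblast markers 3 lower, of 13 vessel markers 1 higher and 1 lower, and of 3 myelin markers 0 changed by limma, also at an unadjusted p under 0.05. The part of these markers in the members' differences was not tested.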

How the data were processed

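The authors deposited log2 expression values per probe set, made with RMA in Affymetrix Expression Console, per the submitters' processing notes; whether all arrays were normalized together is not given in the sources used here. Per the labels' protocols, Trizol-extracted RNA was labelled with a 3' IVT kit. The deposited log2 values were used unchanged, and no column was left out. Control probe sets (45 of 20080) were set aside. Gene symbols came from the platform annotation, and all 75 member symbols are in the RefSeq gene table. No detection call was used.

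Group means were estimated for 20035 probe sets over all 15 arrays (limma 3.58.1, R 4.3.3, lmFit and eBayes, 10 residual and 4.26 prior degrees of freedom), 2-sided, with Benjamini-Hochberg adjustment over all probe sets; an adjusted p under 0.05 is called changed, and errors are SE. Named with values per array are the 12 members furthest in each direction, the 6 largest called changes between 3 and 7 days, list members and genes with several member probe sets, and up to 3 other genes of a list. Lists used 1 probe set per gene, that with the highest mean. The members and lists were chosen with earlier results of these data known. The fit was tested on simulated data. Replicate numbers were not used as a pairing in the main fit. Residuals of same-numbered arrays of different groups correlated between -0.225 and 0.231 (30 pairs). Differently numbered arrays were not compared, so this does not settle whether the arrays were paired. No 2 arrays were identical. Precision is limited by having 3 arrays per group. Figures used Python 3.11.15 and matplotlib 3.10.9.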

Additional observations from a re-analysis of the deposited data

How the results depend on the processing

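The number of members moved by over 1.5 times with the thresholds of the rule. A size of 0.25 gave 46 higher and 86 lower members, and a size of 0.4 gave 6 and 20. A 1 day bound of 0.1 gave 6 and 28. Leaving out 1 array gave 18 to 34 higher and 52 to 68 lower members, the 34 without the third uninjured array. Median centring, cyclic loess, mean bounds of 4 and 6 and a bound of 0.3 stayed within 1.5 times in number. So did limma's adjusted p in place of no overlap, and 1 probe set per gene. The members themselves changed more than their number. Median centring kept 14 of the 19 higher and 53 of the 57 lower members, and cyclic loess kept 14 and 50. Without the second uninjured array 15 and 44 were kept. Counts of members changed stayed within 1.5 times under median centring, cyclic loess, an intensity trend, the 2 groups alone, the replicate block and dim probe sets left out. With the replicate block, 32 members rose and 14 fell between 3 and 7 days, and 14 rose and 46 fell at 3 days and 17 and 46 at 7 days against uninjured cord. It gave 15 and 45 at 3 days against 1 day, and 26 higher and 24 lower genes over the pathway lists. Among single lists the block moved 3 counts of higher genes by over 1.5 times, nuclear import and ubiquitin and SUMO to 1 each in place of 2, and mRNA decay to 0 in place of 1 by limma. Leaving out 1 array gave 27 to 32 higher and 12 to 14 lower members between 7 and 3 days. It gave 12 to 15 and 45 to 46 at 3 days, and 16 to 17 and 44 to 47 at 7 days, against uninjured cord, and 12 to 15 and 44 to 46 at 3 days against 1 day. Over the pathway lists it gave 20 to 28 higher and 18 to 25 lower genes, the 18 without the second uninjured array, and the 2 groups alone gave 16 lower in place of 30. The cause was not tested. No named difference that passed the threshold changed sign. Motifs in promoters were not run. Arrays have no read depth, and 3 pools per group limit the precision.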

Other observations

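Probe sets without a gene name held the same pattern. Of 5105 with a mean above 5, 49 met the values of the rule, or 0.96%, against 1.04% of the 7301 named ones. Of the 49, 33 were lower and 16 higher with ivermectin. They were chosen by the same values, so they are a description.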
